A study of Mus musculus with 44 samples.

Results

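Genes grouped as acute-phase and neutrophil-type granule proteins were followed in mouse peritoneal macrophages: Lcn2, Hp, Orm1, Saa3, Camp, Wfdc21, Mmp8, Mmp9, Stfa3 and Fcnb. They are 10 of the 46078 genes in the count table, found by symbol, and each symbol matched 1 row. The genes were chosen by their measured levels and changes in all 44 libraries, so fold changes, adjusted p-values and counts of called members describe the size and spread of each difference and are not independent evidence for the group. All 10 passed the filter on low counts, which left 14537 genes. Fcnb passed it through the LPS cultures at 72 h, where 73 of its 83 counts lay, so that its difference there was in part fixed by the filter. Camp and Stfa3 passed it through cultures with cell extract or LPS, and Wfdc21 through those with cell extract. Their differences from control, and that of Wfdc21 from LPS, were in part fixed by the filter too.

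Acute-phase proteins are plasma proteins whose levels move during inflammation. Most are made by the liver under cytokines such as IL-6 and IL-1, and C/EBP, NF-kB and STAT3 are transcription factors known to act on their genes. Neutrophil granules are storage organelles loaded with antimicrobial proteins and proteases while the cell matures in the bone marrow. Several genes of both kinds can also be transcribed by activated macrophages, of which Lcn2 and Saa3 are well-known cases.

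The cells came from C57BL/6 mice injected with thioglycolate, which draws monocytes and other leukocytes into the peritoneum. Collection followed 4 days after the injection. Cells of several mice made up a single pool, and those that adhered in the first 24 h were kept. Cultures in DMEM with 10% serum received nothing (control), an extract of H9c2 cells at 10 µg/mL, IL-4 at 10 ng/mL or LPS at 100 ng/mL, and RNA was taken after 8, 24 or 72 h. H9c2 is a rat heart myoblast line, so the extract is a mixture of material from lysed cells, and the series' title presents such material as damage-associated molecular patterns and names M1 polarization as the outcome studied. IL-4 drives alternative activation of macrophages, and LPS, a component of bacterial outer membranes, drives classical activation through the receptor TLR4. There were 12 groups. Those of cell extract at 24 h and, at 72 h, of control, IL-4 and cell extract held 3 libraries each, and the others 4. Because all cultures came from 1 pool, every p-value measures the spread between cultures and not between animals.

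Libraries held 0.908 to 26.6 M gene counts. Levels are counts per M (CPM) after scaling for library composition, and a gene was called at an adjusted p under 0.05 in edgeR's quasi-likelihood test with Benjamini-Hochberg adjustment over the 14537 genes. In 7 libraries, each numbered replicate 3, over 10% of gene-assignable reads were ambiguous between genes, against 5.39% over all libraries. A further 3 libraries stood apart from their groups. In IL-4 replicate 3 at 72 h, Retnla, an IL-4 target gene, was at 13.2 CPM against 854 and 778 CPM in the other IL-4 libraries of that time, while Chil3, another IL-4 target, was at 31606 CPM against 46682 and 41021 CPM. IL-4 replicate 1 at 24 h was the shallowest library, and control replicate 1 at 8 h had 101 CPM of Il6 against 1.74 to 3.04 CPM in the other 3 controls. Values without these 10 libraries were computed as an alternative chosen after seeing the data and stand beside the results that they move.

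Macrophage markers were expressed throughout. The summed level of 8 of them (Adgre1, Csf1r, Cd68, Lyz2, Mertk, Fcgr1, Itgam and Cd14) lay between 7901 and 30720.1 CPM in every library. Most of that sum was Lyz2, with group means from 5314 to 24866 CPM. Other markers were far lower in some groups, with lowest group means of 5.32 CPM for Fcgr1, 25.1 CPM for Cd14 and 34.1 CPM for Mertk. Among 13 markers of the neutrophil lineage, S100a8 and Csf3r were expressed and the other 11, Ly6g, S100a9, Cxcr2, Retnlg, Cd177, Itgb2l, Mpo, Elane, Ltf, Ngp and Cebpe, had no group mean above 2.77 CPM. The 13 markers summed to 56.4 to 85.6 CPM in control libraries at 72 h and to 311 to 529 CPM with LPS at 72 h, the group in which most of the 10 genes were highest. With cell extract they summed to 152 to 182 CPM at 8 h, 173 to 212 CPM at 24 h and 59.8 to 71.6 CPM at 72 h, against 67.5 to 82.1, 58.8 to 72.7 and 56.4 to 85.6 CPM in control. With LPS they summed to 168 to 184 CPM at 8 h and 115 to 124 CPM at 24 h. Of the sum with LPS at 72 h, S100a8 alone made up 393 CPM on average. Csf3r had its lowest group mean there, at 16.5 CPM against 19.9 CPM in control at 72 h. Without S100a8 and Csf3r, the sum of the other 11 was 2.89 to 5.94 CPM with LPS at 72 h and 3.91 to 5.89 CPM in control at 72 h, so these ranges overlapped. S100a9, among these 11, had 51 counts over all libraries against 30303 for S100a8. Loss of its reads in gene assignment was not tested. Ly6g, the defining surface marker of mouse neutrophils, had 17 counts over the 4 LPS libraries at 72 h and none in control at that time. Summed markers of mesothelial cells and fibroblasts (Upk3b, Msln, Krt19, Col1a1 and Dcn) were high in control at 72 h, at 243 to 461 CPM against 83.7 to 92.3 CPM with cell extract, 37.6 to 92.2 CPM with IL-4 and 110 to 194 CPM with LPS. This control group enters every change at 72 h. In control at 8 h and 24 h they summed to 62.5 to 73.7 and 75.3 to 110.0 CPM. In bulk cultures a change in the number of cells of a type and a change in RNA per cell cannot be told apart, and the part of other cells in the values below was not tested.

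Promoters of 6 of the 10 genes were found in RefSeq (build GRCm38.p6), as windows of 300 bases from 250 before to 50 after the transcription start. They were searched on both strands for the letters of a C/EBP motif (TTGCNNAA), 2 forms of an NF-kB motif (GGG, any 2 bases, then TTTCC or TTCCC) and a STAT motif (TTCNNNGAA). The C/EBP letters were present in 4 of the 6 windows, Lcn2, Saa3, Mmp8 and Fcnb, and in 10.8% of all 32851 promoter windows of that length. Neither NF-kB form (1.63% and 1.75% of all windows) nor the STAT form (8.30%) matched in the 6 windows. The windows with a C/EBP match are shown 5′ to 3′ on the gene's strand because these genes follow different time courses in the results, with the match in capitals. In Saa3 and Fcnb the match is on the opposite strand, so that the capitals show its reverse complement.
Lcn2, chr2:32387690-32387989, minus strand: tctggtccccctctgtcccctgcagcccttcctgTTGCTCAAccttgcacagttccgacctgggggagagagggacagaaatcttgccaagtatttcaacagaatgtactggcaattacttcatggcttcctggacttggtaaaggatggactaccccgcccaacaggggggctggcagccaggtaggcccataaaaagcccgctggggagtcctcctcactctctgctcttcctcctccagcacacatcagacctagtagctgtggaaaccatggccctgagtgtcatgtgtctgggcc
Saa3, chr7:46715627-46715926, minus strand: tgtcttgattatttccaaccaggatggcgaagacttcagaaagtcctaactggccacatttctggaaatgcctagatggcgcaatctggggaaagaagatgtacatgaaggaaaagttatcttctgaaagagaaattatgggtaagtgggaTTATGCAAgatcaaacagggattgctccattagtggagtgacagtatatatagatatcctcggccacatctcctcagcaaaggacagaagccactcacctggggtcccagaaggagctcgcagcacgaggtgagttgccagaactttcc
Mmp8, chr9:7558179-7558478, plus strand: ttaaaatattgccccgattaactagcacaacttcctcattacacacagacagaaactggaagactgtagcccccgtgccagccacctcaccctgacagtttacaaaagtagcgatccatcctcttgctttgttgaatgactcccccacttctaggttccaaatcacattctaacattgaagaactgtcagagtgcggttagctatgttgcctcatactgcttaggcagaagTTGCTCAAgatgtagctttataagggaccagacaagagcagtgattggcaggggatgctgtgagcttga
Fcnb, chr2:28084829-28085128, minus strand: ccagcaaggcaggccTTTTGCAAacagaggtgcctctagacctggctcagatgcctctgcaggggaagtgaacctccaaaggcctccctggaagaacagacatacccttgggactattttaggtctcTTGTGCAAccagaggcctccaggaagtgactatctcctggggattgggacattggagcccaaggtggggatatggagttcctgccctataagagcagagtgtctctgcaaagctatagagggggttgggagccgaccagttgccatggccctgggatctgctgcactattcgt
The match lies 216 to 209 bases before the start in Lcn2, 99 to 92 bases before it in Saa3 and 19 to 12 bases before it in Mmp8. Fcnb has 2 matches, at 235 to 228 and 123 to 116 bases before the start. The windows of Camp and Stfa3 held none of the 4 motifs. Such matches are a description of the letters and were not tested as binding sites.

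**Figure D1:**
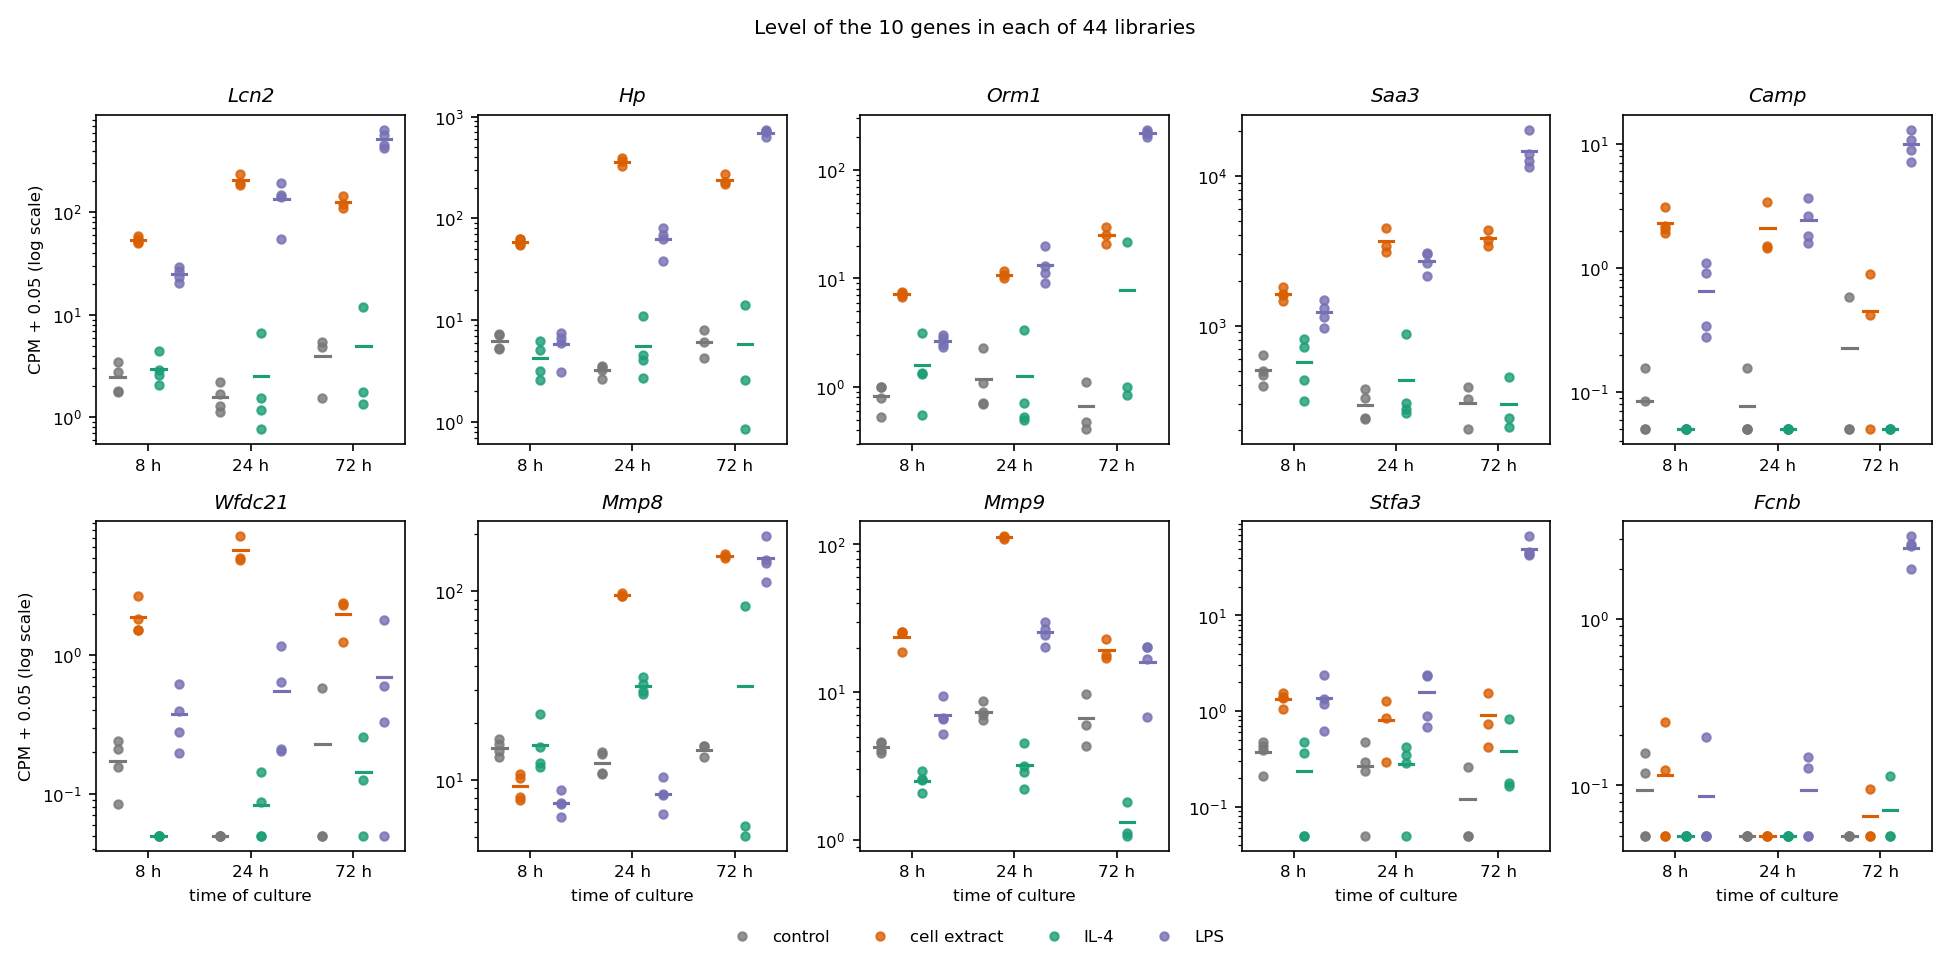
Level of each gene in each of the 44 libraries as CPM plus 0.05 on a log axis, by time (x axis) and stimulus (colour), with a bar at each group mean. Lcn2, Hp, Orm1, Saa3, Camp, Stfa3 and Fcnb have their highest group with LPS at 72 h, Wfdc21 and Mmp9 theirs with cell extract at 24 h, and Mmp8 is high with both stimuli at 72 h.

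Most of the 10 genes were called as higher than control with cell extract at each time and with LPS at 24 h and 72 h. With cell extract, 8 of the 10 rose at 8 h, 9 at 24 h and 7 at 72 h, and none fell. The share of all tested genes called as higher was 13% at 8 h, 11.7% at 24 h and 14.2% at 72 h, and that called as lower was 17.2%, 10.4% and 12.2%. The median log2 change of the 10 genes was 2.76, 3.77 and 3.54 at these times, against -0.06, -0.06 and 0.00 over all tested genes. With LPS, 5 rose at 8 h, 8 at 24 h and 9 at 72 h, none fell, and 21.3%, 18.6% and 16.1% of all tested genes were called as higher and 24.1%, 19.3% and 15.4% as lower. The medians were 1.39, 3.48 and 6.62, against 0.00, -0.07 and 0.05 over all tested genes. Where a gene had no counts in control, the fitted change depends on the prior count. With such genes at their lower bound and genes with 3 counts or fewer in both groups at 0, the LPS medians were 3.05 at 24 h and 5.95 at 72 h, and the cell extract medians stayed as given. The comparisons at 1 time share the control libraries, so the values for both stimuli are given side by side. Nothing is read from the counts, since the genes were picked with these comparisons known.

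**Figure D2:**
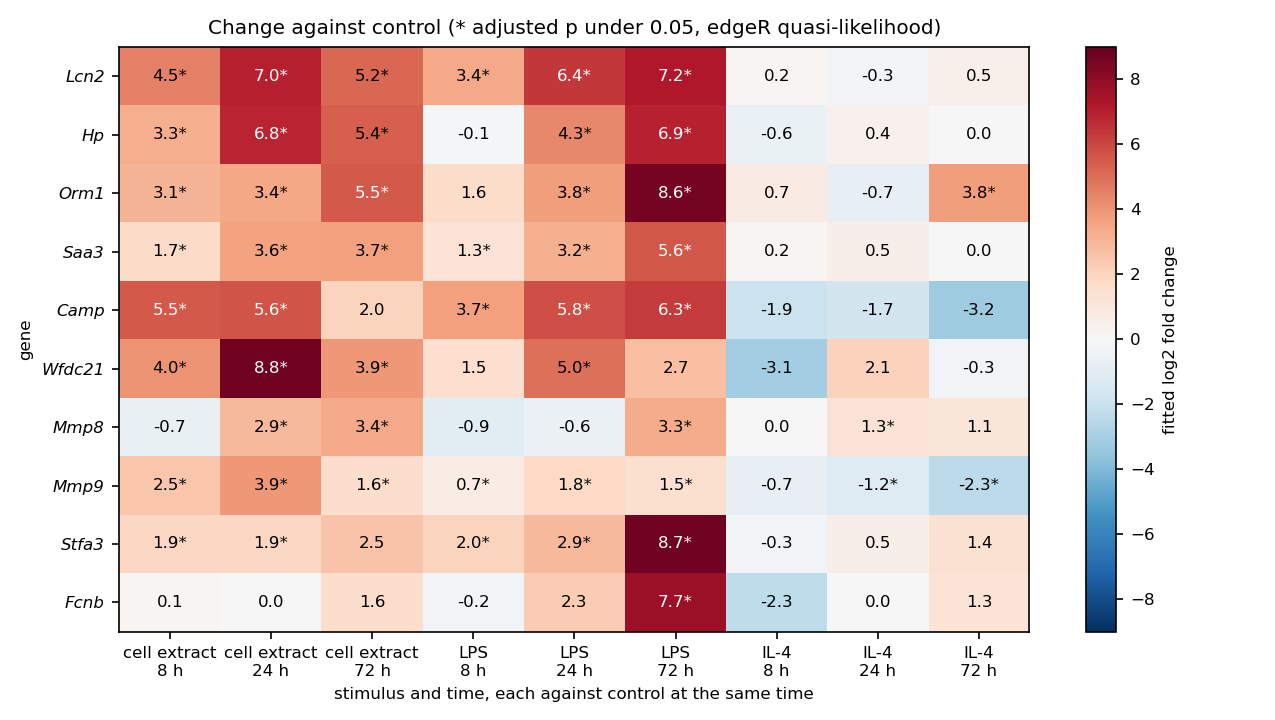
Fitted log2 change of each gene (rows) against control at the same time, for cell extract, LPS and IL-4 at 8, 24 and 72 h (columns), with an asterisk at an adjusted p under 0.05. Most cells of the cell extract and LPS columns are above 0, and values of Camp, Wfdc21 and Fcnb against groups without counts depend on the prior count.

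Lcn2 encodes lipocalin 2, which binds bacterial siderophores and so withholds iron from bacteria. It lies on chromosome 2 (GRCm38, 32384633 to 32388252, minus strand). At 8 h it was at 3.44, 1.77, 2.72 and 1.71 CPM in the control libraries, 58.2, 50.7, 49.7 and 54.6 CPM with cell extract and 29.0, 23.3, 26.9 and 20.5 CPM with LPS. Each stimulated library was above each control library, and each cell extract library was above each LPS library. At 24 h control lay between 1.07 and 2.17 CPM, cell extract stood at 194, 185 and 234 CPM, and LPS at 192, 148, 54.3 and 141 CPM. The LPS library at 54.3 CPM is replicate 3, which had 12.2% of ambiguous reads, and the ranges of both stimuli overlapped. At 72 h Lcn2 was at 110.3, 121 and 145 CPM with cell extract and at 638, 423, 458 and 566 CPM with LPS, so that the order of the stimuli at 8 h was turned around. The log2 change over control was 4.52 ± 0.44 (SE) at 8 h, 6.997 ± 0.50 at 24 h and 5.17 ± 0.57 at 72 h with cell extract, with edgeR adjusted p-values of 6.7e-11, 2.1e-14 and 4.7e-09. With LPS it was 3.42 ± 0.44, 6.38 ± 0.49 and 7.22 ± 0.58, with edgeR adjusted p-values of 2.1e-08, 3.3e-14 and 3.2e-13. In the order of the group means, LPS at 72 h was followed by cell extract at 24 h, LPS at 24 h, cell extract at 72 h, cell extract at 8 h and LPS at 8 h. Libraries of LPS at 24 h (mean 134 CPM) overlapped with cell extract at 24 h (204 CPM) and at 72 h (125 CPM), while all cell extract libraries at 24 h lay above those at 72 h. All control and IL-4 groups had means of 4.96 CPM or less.

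Hp encodes haptoglobin, the plasma protein that binds free hemoglobin. The gene lies on chromosome 8 (GRCm38, 109575128 to 109579172, minus strand). Control libraries at 8 h were at 7.07, 5.28, 5.12 and 7.35 CPM, LPS libraries at 7.47, 3.08, 5.92 and 6.67 CPM, and cell extract libraries at 54.9, 62.7, 56.4 and 63.1 CPM. The LPS libraries overlapped with control on both sides of its range, and all cell extract libraries lay far above both. At 24 h cell extract was at 326, 365 and 392 CPM and LPS at 80.3, 63.3, 38.1 and 68.2 CPM, against 2.59 to 3.50 CPM in control. At 72 h the order was reversed, with 217, 229 and 276 CPM for cell extract, 717, 700.2, 623 and 742 CPM for LPS and 4.24, 6.04 and 8.03 CPM for control. The log2 change over control with cell extract was 3.26 ± 0.39 (SE), 6.83 ± 0.47 and 5.39 ± 0.53 at 8, 24 and 72 h (edgeR adjusted p = 1.0e-08, 7.9e-15 and 3.4e-10). With LPS it was -0.14 ± 0.44, 4.29 ± 0.43 and 6.92 ± 0.54 (edgeR adjusted p = 0.82, 6.6e-11 and 1.8e-13).

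Orm1 encodes orosomucoid 1, an acidic glycoprotein of plasma that carries lipophilic molecules. It lies on chromosome 4 (GRCm38, 63344560 to 63348163, plus strand) beside its close copies Orm2 and Orm3, and reads shared with these could not be assigned by unique alignment, so its level is uncertain to that extent. Cell extract libraries were at 7.51, 6.68, 6.997 and 7.35 CPM at 8 h, 10.1, 10.7 and 11.6 CPM at 24 h and 20.7, 25.1 and 29.7 CPM at 72 h. LPS libraries were at 2.30, 2.78, 2.44 and 2.99 CPM at 8 h, 8.95, 12.9, 19.7 and 11.2 CPM at 24 h, and 201, 235, 226 and 214 CPM at 72 h. Control libraries stayed between 0.356 and 2.22 CPM at all times. Orm1 was thus above every control library of its time with either stimulus, and its highest level by far came with LPS at 72 h. The log2 change with LPS at 72 h was 8.64 ± 0.85 (SE, edgeR adjusted p = 7.3e-11), although control at 72 h held 5 counts in all. With cell extract the log2 changes were 3.05, 3.45 and 5.52 (edgeR adjusted p = 1.4e-04, 5.0e-05 and 3.0e-05). At 8 h the LPS change of 1.62 did not pass the edgeR test (adjusted p = 0.074). It passed in DESeq2 (adjusted p = 0.019) and without the 10 libraries (1.9e-04).

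Saa3 encodes serum amyloid A3, the acute-phase apolipoprotein that mice make outside the liver. It was the most abundant of the 10 genes and the only one whose control libraries all reached 202 CPM or more. It lies on chromosome 7 (GRCm38, 46711998 to 46715700, minus strand). Control libraries held 397 to 638 CPM at 8 h, 239 to 377 CPM at 24 h and 202 to 386 CPM at 72 h. With cell extract it was at 1609.7, 1631, 1797 and 1462 CPM at 8 h, 3086, 3395 and 4477 CPM at 24 h and 3397, 3746 and 4367 CPM at 72 h. With LPS it was at 1135, 958, 1317 and 1491 CPM at 8 h, 3055, 2602, 2132 and 3023 CPM at 24 h and 20298, 12647, 11459 and 14073 CPM at 72 h. Both stimuli lay above every control library at each time, and the LPS libraries at 72 h lay above all other libraries of the series. The fold over control with LPS was 2.44 at 8 h, 9.10 at 24 h and 48.3 at 72 h, and with cell extract 3.24, 12.3 and 12.7. All 6 differences passed (edgeR adjusted p from 2.5e-14 to 4.2e-04).

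**Figure D3:**
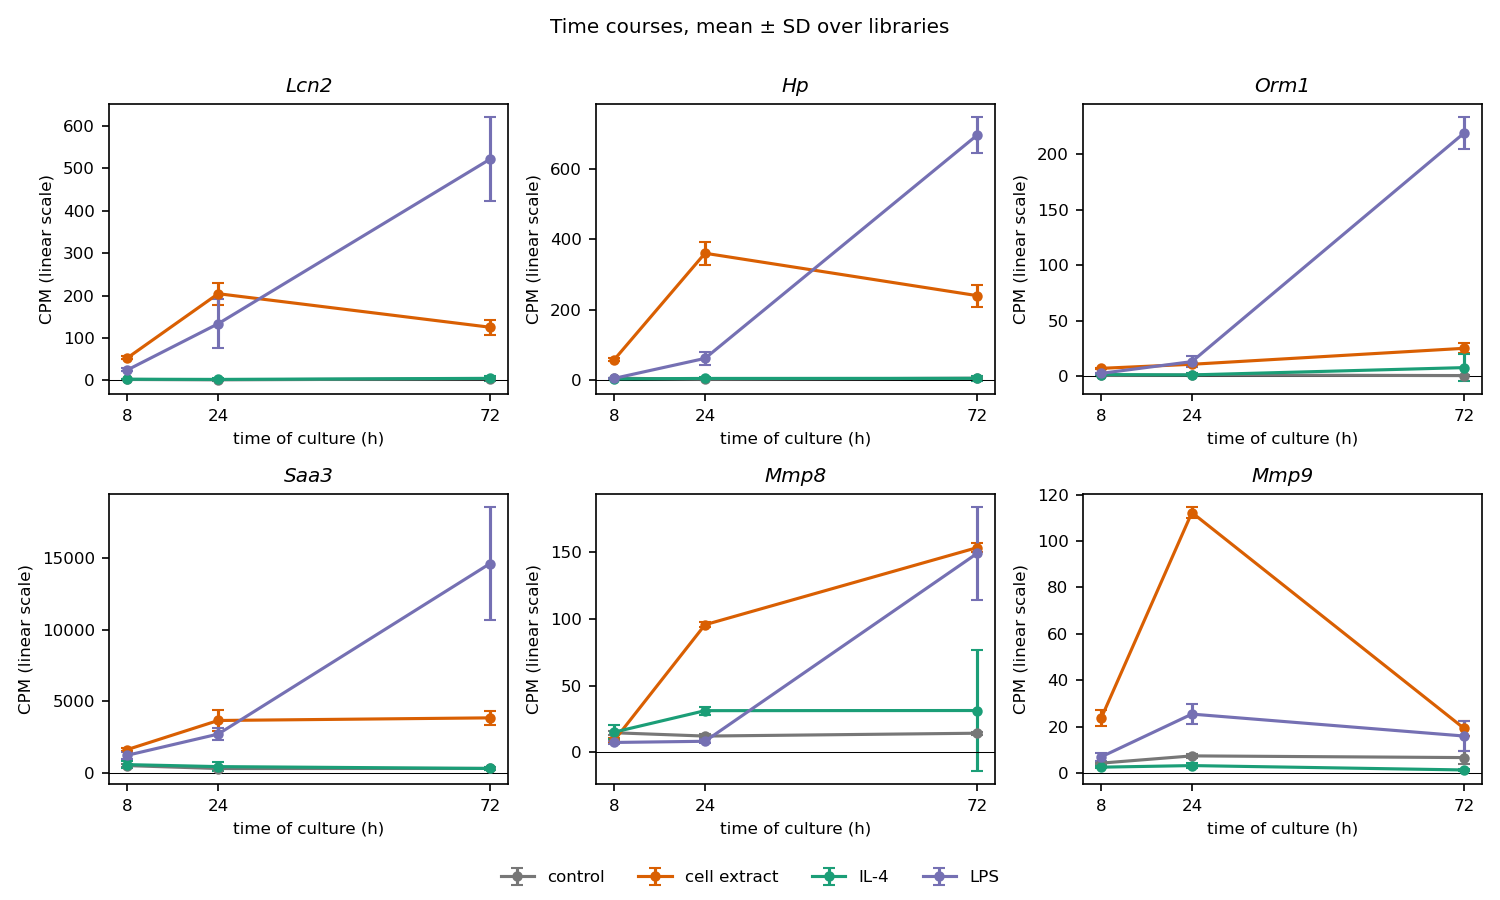
Mean CPM on a linear axis against time of culture for 6 of the genes, with SD over 3 or 4 libraries as error bars and 1 line per stimulus; a bar that reaches below 0 comes from 1 library far above the others. LPS ends far above cell extract for Lcn2, Hp, Orm1 and Saa3 at 72 h, Mmp9 peaks with cell extract at 24 h, and Mmp8 reaches about the same level with both at 72 h.

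Several of the other members were at low levels. Camp encodes the precursor of the antimicrobial peptide CRAMP, and it lies on chromosome 9 (GRCm38, 109847379 to 109849617, minus strand). It was near absent from resting cultures, with 4 counts over the 11 control libraries and none in the 11 IL-4 libraries. With cell extract it was at 2.15, 1.86, 3.03 and 2.03 CPM at 8 h and 1.40, 1.45 and 3.32 CPM at 24 h, and at 72 h it was back at 0.367, 0 and 0.840 CPM. With LPS it was at 0.862, 0.293, 1.05 and 0.230 CPM at 8 h, 3.64, 1.55, 1.75 and 2.57 CPM at 24 h, and 10.6, 7.10, 8.79 and 12.9 CPM at 72 h. The stimuli therefore moved apart, with cell extract high first and LPS high last. Since control groups held 1 or 2 counts, the change is given as a ratio of counts with its 95% counting interval. Cell extract was 59.3 times control at 8 h (15.8 to 499) and LPS was 89.6 times control at 72 h (15.9 to 3555). Cell extract at 72 h did not pass (ratio 4.54, interval 0.712 to 190, edgeR adjusted p = 0.21).

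Wfdc21 encodes a small secreted protein with a whey acidic protein domain, the fold found in several protease inhibitors. It lies on chromosome 11 (GRCm38, 83746940 to 83752642, plus strand). It was highest with cell extract at 24 h, at 5.01, 4.78 and 7.20 CPM, while the 4 control libraries of that time had no count. That is at least 65.6-fold higher, against a floor of 3 counts over the control group. With cell extract it was also at 1.48, 1.48, 2.65 and 1.77 CPM at 8 h and at 1.19, 2.25 and 2.33 CPM at 72 h, against 0.0341 to 0.191 CPM and 0, 0 and 0.535 CPM in control. LPS libraries ranged from 0.147 to 0.575 CPM at 8 h, 0.155 to 1.12 CPM at 24 h and 0 to 1.75 CPM at 72 h. The rise with LPS at 24 h passed on 14 counts, at least 4.24-fold against the same floor (edgeR adjusted p = 0.0013). Of Camp, Wfdc21, Stfa3 and Fcnb, Wfdc21 alone had a higher mean with cell extract than with LPS at each of the 3 times, although the libraries of both overlapped at 72 h. The rise with cell extract at 72 h (edgeR adjusted p = 0.0070) did not hold without control replicate 1 at 72 h (adjusted p = 0.070) or without the 10 libraries (adjusted p = 0.052). The LPS change at 72 h did not pass (log2 2.70, edgeR adjusted p = 0.079), but passed with the replicate number as a block (adjusted p = 0.0497).

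Stfa3 encodes a stefin, an inhibitor of cysteine proteases such as cathepsins. It lies on chromosome 16 (GRCm38, 36450537 to 36455392, minus strand) in a cluster of near-identical copies, which leaves its level uncertain. With LPS at 72 h it was at 46.3, 42.5, 43.6 and 67.5 CPM, and in the other 40 libraries it never passed 2.34 CPM. Control at 72 h held 1 count, and the ratio of counts was 481 (95% interval 86.2 to 19027). At 8 h and 24 h it was at 0.575 to 2.34 CPM and 0.637 to 2.32 CPM with LPS, 1.01 to 1.48 CPM and 0.246 to 1.21 CPM with cell extract, and 0.160 to 0.426 CPM and 0 to 0.428 CPM in control. These small rises passed with LPS (log2 2.02 and 2.92, edgeR adjusted p = 0.0023 and 1.2e-04) and with cell extract at 8 h (log2 1.89, edgeR adjusted p = 0.0048). The rise with cell extract at 24 h (log2 1.86, edgeR adjusted p = 0.040) did not hold when any of 5 libraries was left out in turn, with adjusted p-values from 0.054 to 0.21, or without the 10 libraries (0.092). Those 5 were control replicates 1, 3 and 4 and cell extract replicates 3 and 4.

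Fcnb encodes ficolin B, a lectin that recognizes sugars on microbes and starts the lectin pathway of complement. It lies on chromosome 2 (GRCm38, 28076378 to 28084885, minus strand). It was at 1.93, 3.08, 2.75 and 2.68 CPM with LPS at 72 h, and in all other 40 libraries together it had 10 counts. Control at 72 h had no count. On counts summed over each group, LPS was at least 8.87-fold higher, against a floor of 3 counts over the control group. Neither stimulus at 8 h or 24 h, nor cell extract at 72 h, had more than 2 counts in its group.

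Mmp8 and Mmp9 encode the matrix metalloproteinases neutrophil collagenase and gelatinase B, which cut collagens and gelatin. Mmp8 lies on chromosome 9 (GRCm38, 7558456 to 7568485, plus strand). At 8 h it was at 14.2, 13.1, 16.3 and 15.3 CPM in control, 10.7, 8.02, 10.2 and 7.73 CPM with cell extract and 6.32, 7.47, 8.83 and 7.36 CPM with LPS. Every stimulated library was below every control library at that time. The log2 differences were -0.69 for cell extract and -0.94 for LPS and did not pass in the fit of all groups (edgeR adjusted p = 0.28 and 0.0995). Without the 10 libraries both passed, at -0.61 (adjusted p = 0.022) and -0.86 (5.0e-04), and so they did in fits of the compared groups alone. At 24 h the stimuli parted. Cell extract was at 97.6, 94.5 and 94.5 CPM, LPS at 8.39, 8.29, 10.3 and 6.52 CPM and control at 10.6, 10.8, 13.7 and 14.0 CPM, so that LPS libraries were still below control while cell extract libraries were far above. The cell extract change was 7.70-fold (log2 2.95 ± 0.45 SE, edgeR adjusted p = 1.7e-06). The LPS difference at 24 h did not pass in the fit of all groups (log2 -0.56, edgeR adjusted p = 0.36). At 72 h both were high, at 157, 150.1 and 152 CPM with cell extract and 196, 141, 112 and 146 CPM with LPS against 15.1, 13.2 and 14.99 CPM in control. The folds of 10.6 and 10.2 both passed (edgeR adjusted p = 5.1e-06 and 1.9e-06).

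Mmp9 lies on chromosome 2 (GRCm38, 164940780 to 164955850, plus strand). Control libraries were at 4.58, 4.47, 4.00 and 3.84 CPM at 8 h, 6.42, 8.67, 7.26 and 6.99 CPM at 24 h and 5.94, 4.27 and 9.63 CPM at 72 h. With cell extract it was at 25.5, 24.9, 18.5 and 25.6 CPM at 8 h, 113, 109.6 and 114 CPM at 24 h and 17.8, 22.9 and 17.1 CPM at 72 h. With LPS it was at 6.61, 5.13, 6.504 and 9.44 CPM at 8 h, 26.8, 30.0, 24.5 and 20.1 CPM at 24 h and 6.75, 20.2, 16.7 and 20.03 CPM at 72 h. Mmp9 was therefore highest at 24 h with either stimulus, and cell extract libraries at 8 h and 24 h lay above every LPS library of the same time. The fold over control with cell extract was 5.56, 15.1 and 2.99 at 8, 24 and 72 h (edgeR adjusted p = 1.6e-13, 1.6e-18 and 8.9e-06). With LPS it was 1.59, 3.42 and 2.77 (edgeR adjusted p = 0.0089, 2.3e-10 and 8.3e-06). The LPS value at 8 h did not hold without LPS replicate 4 (adjusted p = 0.068). At 72 h LPS replicate 1, a library of 1.10 M counts, lay within the control range.

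Levels of different genes are comparable only per length. With LPS at 72 h the mean level in counts per kb of exon per M was 5609.7 for Saa3, 433 for Hp, 283 for Orm1, 199 for Lcn2, 121 for Stfa3 and 61.4 for Mmp8. Camp followed at 13, Mmp9 at 4.49, Fcnb at 1.95 and Wfdc21 at 1.48. With cell extract at 24 h the mean level per kb was 1402 for Saa3, 225 for Hp and 77.9 for Lcn2, then 39.4 for Mmp8, 31.7 for Mmp9, 13.9 for Orm1 and 13.1 for Wfdc21. The acute-phase genes Saa3, Hp and Lcn2 were thus among the 4 highest levels in both groups. Orm1, also an acute-phase gene, was among them with LPS at 72 h only, and lay below Mmp8 and Mmp9 with cell extract at 24 h. Stfa3, at 1.83 per kb with cell extract, was the member whose place differed most between the 2 groups.

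Members called in the direct comparison of cell extract with LPS were higher with cell extract at 8 h and 24 h and higher with LPS at 72 h. At 8 h, 5 were higher with cell extract and none lower (14% of all tested genes were called as higher). These were Hp (10.6-fold, edgeR adjusted p = 1.4e-08), Wfdc21 (5.74-fold, 0.0037), Camp (3.52-fold, 0.0084), Mmp9 (3.49-fold, 8.9e-10) and Lcn2 (2.14-fold, 0.020). The Lcn2 value did not pass in DESeq2 (adjusted p = 0.067). At 24 h, 4 were higher with cell extract and none lower (8.06% called as higher): Wfdc21 (13.6-fold), Mmp8 (11.4-fold), Hp (5.81-fold) and Mmp9 (4.43-fold), with edgeR adjusted p-values from 6.9e-12 to 1.7e-05. At 72 h, 7 were higher with LPS and none with cell extract, where 11.4% of all tested genes were called in that direction. The fold of LPS over cell extract was 72.9 for Stfa3, 67.6 for Fcnb, 19.6 for Camp, 8.75 for Orm1, 4.15 for Lcn2, 3.81 for Saa3 and 2.89 for Hp (edgeR adjusted p from 1.0e-11 to 0.0029). The Fcnb ratio rests on 1 count with cell extract. Mmp8, Mmp9 and Wfdc21 did not pass at 72 h, with log2 differences of 0.06 ± 0.42 (SE), 0.11 ± 0.20 and 1.21 ± 0.62.

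The change of each effect with time was tested in the same fit. The LPS effect was larger at 72 h than at 8 h for 7 members, where 15.7% of all tested genes were called as higher, with log2 differences of 7.06 for Hp, 7.02 for Orm1, 6.71 for Stfa3, 4.30 for Saa3, 4.29 for Mmp8 and 3.80 for Lcn2. Fcnb was the seventh, with no fold because 1 of its control groups had no count and the other had 3. The cell extract effect was larger at 72 h for 3 members (13.1% called as higher), at 4.10 for Mmp8, 2.13 for Hp and 1.97 for Saa3. It was smaller for Mmp9 (-0.90, edgeR adjusted p = 0.045; 8.75% called as lower), a value that did not hold when any of 10 of the 14 libraries was left out. For Camp the cell extract value was -3.48 ± 1.92 (SE) and did not pass (edgeR adjusted p = 0.23), with 1 or 2 counts in the control groups.

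For IL-4, counts of called members are given beside the shares of all tested genes, and nothing is read from these counts. At 8 h edgeR called none of the 10, 1 had an unadjusted p under 0.05 (Mmp9), and DESeq2 called none (8.33% of all tested genes were called). At 24 h it called 2, Mmp8 as higher and Mmp9 as lower, where 4.74% of all tested genes were called as higher and 4.76% as lower. At 72 h it called 2, Orm1 as higher and Mmp9 as lower, where 13.2% were called as higher and 10.5% as lower. Mmp9 at 8 h was at 2.86, 2.02, 2.49 and 2.53 CPM with IL-4, below the 3.84 to 4.58 CPM of control, and did not pass (edgeR adjusted p = 0.12). It fell with IL-4 later, from 6.42, 8.67, 7.26 and 6.99 CPM in control to 2.18, 2.84, 3.11 and 4.51 CPM at 24 h, and from 5.94, 4.27 and 9.63 CPM to 1.06, 1.75 and 1.02 CPM at 72 h. All IL-4 libraries of both times lay below all control libraries of their time. The level was 2.23-fold lower at 24 h (edgeR adjusted p = 2.5e-04) and 5.01-fold lower at 72 h (edgeR adjusted p = 2.5e-07). The effect at 72 h was stronger than that at 8 h (log2 difference -1.61 ± 0.42 SE, edgeR adjusted p = 0.0080), where 6.57% of all tested genes were called as lower. Mmp8 with IL-4 at 24 h was at 34.9, 32.3, 28.4 and 29.6 CPM, above all 4 control libraries (10.6 to 14.0 CPM). That difference was 2.48-fold (edgeR adjusted p = 0.048). It did not pass when any 1 of the 8 libraries was left out (adjusted p from 0.066 to 0.12).

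At 72 h the IL-4 values of 4 members rested on replicate 3, the library low in Retnla. It held 83.5 CPM of Mmp8 against 5.003 and 5.61 CPM in replicates 2 and 4, 21.6 CPM of Orm1 against 0.796 and 0.955 CPM, 14.2 CPM of Hp against 0.796 and 2.55 CPM, and 11.9 CPM of Lcn2 against 1.29 and 1.72 CPM. It was above all control libraries of 72 h for these 4 genes, while the other IL-4 libraries lay within or below the control range. Its level of the neutrophil marker S100a8 was 18.2 CPM, below the 39.9 to 55.7 CPM of control, and it had no count of Ly6g. With all libraries, Orm1 rose (log2 3.77, edgeR adjusted p = 0.0096) and Mmp8 (log2 1.11, adjusted p = 0.12) and Hp (log2 -0.04, adjusted p = 0.98) did not pass. Without replicate 3, Mmp8 was lower than control (log2 -1.43, edgeR adjusted p = 6.9e-06), Hp was lower (log2 -1.86, 0.0017) and Orm1 did not pass (log2 0.69, 0.50). The fall of Mmp9 was present in each of the 3 libraries.

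**Figure D4:**
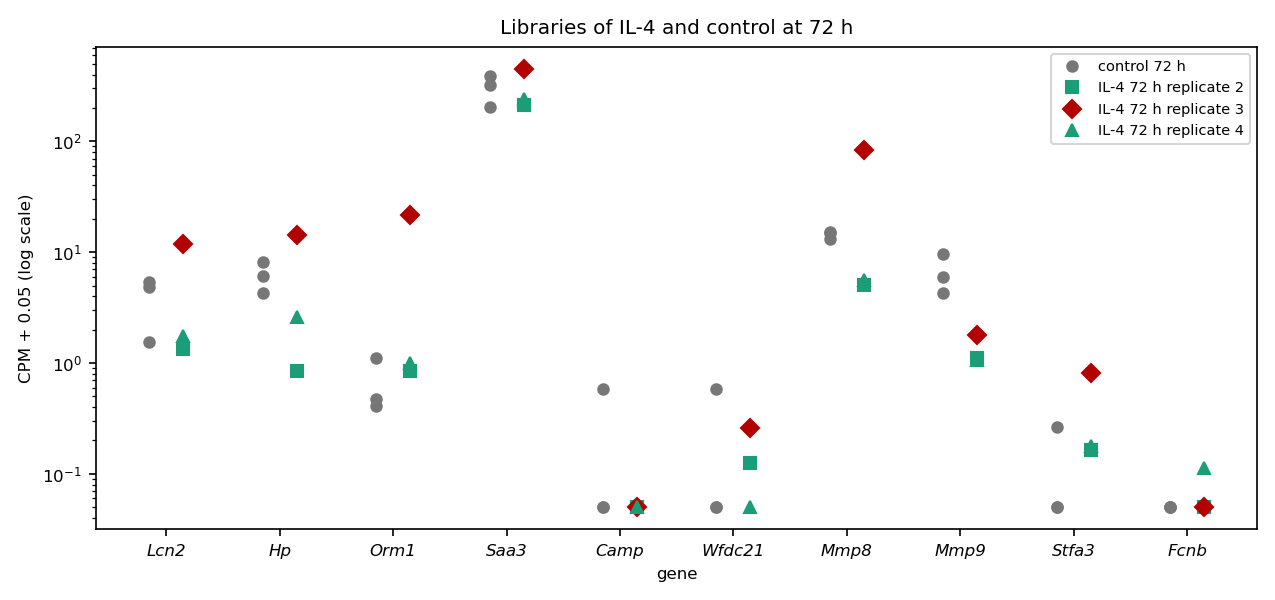
CPM plus 0.05 on a log axis for the 10 genes (x axis) in the 3 control libraries and the 3 IL-4 libraries at 72 h, with IL-4 replicate 3 as red diamonds. Replicate 3 lies above the controls for Lcn2, Hp, Orm1, Saa3, Mmp8 and Stfa3, and all 3 IL-4 libraries lie below the controls for Mmp9.

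In control cultures no member passed the test over time. From 8 h to 72 h edgeR called none of the 10, 2 had an unadjusted p under 0.05 (Saa3 and Mmp9), and DESeq2 called none (13.5% of all tested genes were called). Saa3 had the difference nearest to the threshold, at log2 -0.73 ± 0.33 (SE, edgeR adjusted p = 0.13), and every control library at 72 h was below every one at 8 h. With no filter on low counts it passed (log2 -0.78, adjusted p = 0.021).

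Most other neutrophil granule genes were hardly detected. Of 14 (among them Elane, Mpo, Ltf and S100a9), 10 were too low to test, with no group mean above 1.42 CPM. S100a9 had 51 counts over all libraries, against 30303 for S100a8. Whether reads of these genes were lost in gene assignment was not tested. Of the 4 tested, S100a8, the calcium-binding calgranulin A, rose with LPS at 72 h from 45.6 to 393 CPM and with cell extract at 24 h from 27.7 to 148 CPM, and did not pass with cell extract at 72 h. Adam8, a membrane metalloproteinase, fell at 8 h and 24 h with both stimuli (log2 -1.79 and -1.44 with cell extract, -1.72 and -1.78 with LPS). Mmp25, a leukocyte metalloproteinase, rose with LPS at 8 h and 24 h (log2 2.62 and 1.95). Prtn3, proteinase 3, had a mean of 0.169 CPM in control at 8 h and no count with cell extract there (edgeR adjusted p = 0.028), and 0.137 CPM in control at 24 h and no count with LPS (0.034). These levels are low, as 3 counts over control at 8 h amount to 0.0541 CPM. At 24 h its mean with cell extract was 0.342 CPM, above control, and its highest mean was 1.14 CPM in control at 72 h. With LPS at 72 h, 1 of the 4 rose and none fell, with a median log2 change of 0.66 against 0.05 over all tested genes, of which 16.1% were called as higher and 15.4% as lower.

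Of 23 other acute-phase genes, 12 were too low to test, including Saa1, Saa2, Crp, Apcs and Hpx, whose highest group means were between 0.0270 and 0.491 CPM. Of the 11 tested, 7 rose and 1 fell with LPS at 72 h (median log2 change 3.19 against 0.05 over all tested genes), and 5 rose and 1 fell with cell extract at 24 h (2.60 against -0.06). Of all tested genes 16.1% were called as higher and 15.4% as lower with LPS at 72 h, and 11.7% and 10.4% with cell extract at 24 h. The remaining 3 and 5 genes did not pass. Cfb, complement factor B, reached 923 ± 121 CPM (SD, n = 4) with LPS at 72 h against 3.91 ± 1.64 CPM (n = 3) in control. C3, the central complement component, rose 9.11-fold there, and Cp, the copper-carrying ferroxidase ceruloplasmin, 2.50-fold. Ptx3, the long pentraxin of local inflammation, had its peak with LPS at 8 h, at 81.9 ± 13.9 CPM against 0.807 ± 0.663 CPM in control (n = 4 each). Of the 10 genes, none had its highest mean at 8 h.

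Among 14 other stefins, cystatins, whey acidic proteins and ficolins, 7 were tested. Stfa1, Stfa2 and Stfa2l1, close copies of Stfa3, had group means of at most 0, 0.00852 and 0.0317 CPM. With cell extract at 24 h 3 rose and 2 fell, and with LPS at 72 h 2 rose and 1 fell (medians 0.87 and -0.01 on the log2 scale, against -0.06 and 0.05 over all tested genes). The shares of all tested genes called as higher and as lower were 11.7% and 10.4% with cell extract at 24 h and 16.1% and 15.4% with LPS at 72 h. Slpi, an inhibitor of neutrophil elastase, rose with both stimuli at each time and reached 312 ± 50.9 CPM (SD, n = 3) with cell extract at 24 h and 226 ± 43.1 CPM (n = 4) with LPS at 72 h. Cst7, cystatin F, also rose with both at each time, and had its highest mean with LPS, at 77.7 ± 27.8 CPM (n = 4) at 24 h. Fcna, which encodes ficolin A, fell with cell extract at 24 h and 72 h (log2 -0.64 and -1.05), and so did Cst3, cystatin C (-0.73 and -1.04).

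All 13 other matrix metalloproteinase and inhibitor genes were tested. With cell extract at 24 h 6 rose and 4 fell, and with LPS at 72 h 3 rose and 7 fell, with medians of -0.28 and -1.16 against -0.06 and 0.05 over all tested genes. Over all tested genes 11.7% rose and 10.4% fell in the first of these comparisons, and 16.1% rose and 15.4% fell in the other. Timp1, an inhibitor of these proteases, and Mmp2, gelatinase A, rose with both stimuli at each time. Mmp12, macrophage elastase, fell at 24 h and 72 h with both (log2 -1.38 and -0.996 with cell extract, -2.09 and -1.16 with LPS). Mmp13, collagenase 3, rose with all 3 stimuli at 8 h and 24 h, by log2 2.74 and 1.52 with cell extract, 4.15 and 2.57 with LPS and 3.19 and 2.80 with IL-4.

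Of 20 regulators and receptors tied to the members, 18 were tested. With cell extract 9 rose and 3 fell at 8 h, 10 rose and 2 fell at 24 h, and 9 rose and 4 fell at 72 h. Of all tested genes 13%, 11.7% and 14.2% rose and 17.2%, 10.4% and 12.2% fell at these times, and the list's median log2 changes were 0.88, 0.48 and 0.58 against -0.06, -0.06 and 0.00. With LPS 9 rose at each time, and 4, 6 and 5 fell at 8, 24 and 72 h. Of all tested genes 21.3%, 18.6% and 16.1% rose and 24.1%, 19.3% and 15.4% fell with LPS, and the list's medians were 0.88, 0.64 and 0.89 against 0.00, -0.07 and 0.05. Nfkbiz, which encodes the co-activator IkB-zeta of secondary NF-kB target genes, was highest at 8 h, at 197 ± 9.28 CPM with cell extract and 245 ± 16.2 CPM with LPS against 8.42 ± 4.31 CPM in control (SD, n = 4 each). Tlr2, a receptor for bacterial lipoproteins and for some host molecules, was at 713 ± 59.6 CPM with cell extract and 1054 ± 25.7 CPM with LPS at 8 h against 32.9 ± 14.97 CPM in control (SD, n = 4 each). Cebpa, one of the C/EBP factors, fell at 8 h (log2 -1.37 with cell extract and -3.06 with LPS), was still lower with LPS at 24 h (-0.91) and was higher with cell extract at 72 h (0.59). Il6ra, the IL-6 receptor chain, fell with both stimuli at each time (log2 from -2.31 to -0.87).

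Across the 12 group means, members differed in how alike their courses were. The Pearson r of mean log2 CPM, given as a description over groups that share libraries of 1 isolate, was 0.97 for Lcn2 and Saa3, 0.95 for Orm1 and Saa3 and 0.93 for Stfa3 and Fcnb. It was lowest for Wfdc21 and Fcnb (0.046) and for Mmp9 and Fcnb (0.14). Outside the 10, the genes most like Lcn2 over the 12 groups were Smpdl3b (r = 0.987), Clmp (0.982) and Fpr2 (0.981), and those most like Saa3 were Smpdl3b (0.970), Bst1 (0.970) and Pla2g7 (0.962). Smpdl3b, for example, was at 1.99 ± 0.255 CPM in control (n = 3), 39.6 ± 3.07 CPM with cell extract (n = 3) and 277 ± 44.4 CPM with LPS (n = 4) at 72 h (SD). Those most like Mmp9 were Panx1 (0.958), Xylt2 (0.948) and Rac2 (0.929), and those most like Camp were Bdp1 (0.958), Itpr2 (0.9495) and 4930597O21Rik (0.948). Likeness to Camp was measured on a gene with few counts.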

How the data were processed

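RNA of 44 cultures in 12 groups was sequenced after polyA selection with a CATS kit, per the labels' protocols. The authors deposited whole-number read counts per gene, not normalized. The submitters' processing notes name cutadapt, Bowtie2, TopHat2 2.1.1, HTSeq and build mm10. The sources used here give neither the annotation release nor the strand setting. The deposited trimming script drops reads under 18 bases. The 5 summary entries of the table, ambiguous reads among them (5.39% of gene-assignable reads), stayed out of library sizes and tests.

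Genes were filtered with filterByExpr at a minimum count of 10 and scaled by TMM. One coefficient per group was fitted over the 44 libraries (32 residual degrees of freedom) with edgeR 4.0.16 in R 4.3.3, and the quasi-likelihood test was adjusted by Benjamini-Hochberg over 14537 genes. The procedure was tested on simulated data. Levels per length used the exons of GENCODE M21. A fold against a group with 0 counts uses a floor of 3 counts over the group, and ratios carry exact 95% intervals. Intervals and floors cover counting error only. The SE of a log2 change is derived from the quasi-likelihood test, as the absolute change divided by the square root of its F statistic. It is thus approximate and not a separately fitted error.

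The members and gene lists were chosen with earlier results of these data known. All 10 members are named. From each other list up to 4 tested genes are named, those with the smallest p against control over the cell extract and LPS comparisons, and for Lcn2, Saa3, Mmp9 and Camp the 3 genes with the most similar group means. Genes too low to test are named as examples of their list, chosen after their values were seen. Alternatives were RLE size factors, DESeq2 1.42.0, no filter, fits of only the compared groups, a block for the replicate number, each library left out and, added after seeing the data, 10 libraries left out. Replicate numbers were checked for pairing by the correlation of deviations from the group means. The numbers counted as pairing where every one of at least 3 pairs was over 0.1, which held in 3 of 12 comparisons (cell extract and LPS against control at 8 h, LPS against control at 24 h), and over 40 pairs r lay between -0.15 and 0.60. No 2 libraries of a group agreed within counting noise (lowest chi-square per degree of freedom 3.57 over 60 pairs).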

Additional observations from a re-analysis of the deposited data

Results flagged for a closer look

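In 7 of 80 combinations of member and group, 1 library of 4 stood far from the other 3, and chance gives about 1 in 20 for normally distributed values. That rate does not hold for genes with few counts, since a group whose only count lies in 1 library is always flagged. IL-4 replicate 1 at 24 h, the shallowest library, had 6.54 CPM of Lcn2 on 6 counts (others 0.711 to 1.51), 3.27 CPM of Orm1 on 3 counts (others 0.448 to 0.660) and 879 CPM of Saa3 (others 262 to 305). Stfa3 in LPS replicate 4 at 72 h was at 67.5 CPM (others 42.5 to 46.3). Mmp9 in cell extract replicate 3 at 8 h was at 18.5 CPM (others 24.9 to 25.6). Camp in control replicate 2 at 24 h was at 0.107 CPM and Fcnb in LPS replicate 2 at 8 h at 0.147 CPM, each on 1 count with none in the others.

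For 12 results the effect of a stimulus at 72 h differed from its effect at 8 h in the test of that difference (edgeR, adjusted over all genes). With LPS the log2 difference was 3.80 for Lcn2 (adjusted p = 6.9e-05), 7.06 for Hp (9.4e-11), 7.02 for Orm1 (4.1e-05), 4.30 for Saa3 (1.6e-09), 4.29 for Mmp8 (5.3e-06) and 6.71 for Stfa3 (1.0e-05). For Fcnb the fitted value of 7.91 (adjusted p = 0.0098) depends on the prior count, since control at 72 h had no count. With cell extract it was 2.13 for Hp (0.014), 1.97 for Saa3 (0.0015), 4.10 for Mmp8 (2.5e-05) and -0.90 for Mmp9 (0.045). With IL-4 it was -1.61 for Mmp9 (0.0080).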

How the results depend on the processing

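Of 94 member results followed, RLE size factors kept the direction and side of the threshold of all 94. With the replicate block 91 kept both, 2 newly passed, and Hp with IL-4 at 72 h turned from -0.04 to 0.014 without passing; the block changed no count of called members by more than 1.5 times. The numbers matched best with the same number in 27 of 40 pairs, each with 3 or 4 libraries to choose from. That is more than an even choice would give, and the main fit has no block. DESeq2 kept 90, lost 2 (Lcn2 for cell extract against LPS at 8 h and Fcnb for the LPS effect difference) and newly passed 1. It gave no adjusted p-value for the remainder. With no filter 81 were kept, 11 newly passed, 1 was lost, Hp with IL-4 at 72 h turned to 0.054, Saa3 made 1 call between control at 72 h and 8 h where there was none, and the IL-4 effect difference had 3 calls in place of 1. With the compared groups alone 76 were kept and 8 newly passed, and the rest of the 94 had no value and were not retested. Orm1 with IL-4 at 72 h was among those without a value, which left 1 call in place of 2. Without the 10 libraries in doubt 80 were kept, 8 newly passed, 3 were lost and 3 turned: Mmp8 with IL-4 at 72 h (-1.50), its IL-4 effect difference (-1.54) and that of Orm1 (-0.16); the IL-4 effect difference then had 2 calls. The called members against control were then 9, 8 and 6 with cell extract, 7, 9 and 9 with LPS and 0, 2 and 3 with IL-4 at 8, 24 and 72 h.

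Leaving out each library gave 8 to 8, 8 to 9 and 6 to 7 called members with cell extract at 8, 24 and 72 h, 4 to 5, 8 to 8 and 9 to 10 with LPS, and 0 to 0, 1 to 1 and 1 to 3 with IL-4. The effect differences had 2 to 4 calls with cell extract, 6 to 8 with LPS and 1 to 2 with IL-4; the 2 with cell extract came without control replicate 1 at 72 h, which had 4.47 M counts, and 1 call with IL-4 at 72 h also came without it. The log2 difference with IL-4 at 72 h ranged from -1.86 to 0.55 for Hp and from -1.43 to 1.64 for Mmp8, and the IL-4 effect difference from -0.019 to 3.66 for Orm1, with the low ends of Hp, Mmp8 and Orm1 coming without IL-4 replicate 3; that of Mmp8 ranged from -1.43, also without it, to 1.65. Reversed values of Hp were 0.033, 0.18, 0.55 and 0.33. Hp for the cell extract effect difference was lost without control replicate 1 at 72 h (adjusted p = 0.0625), and Fcnb for that of LPS without control replicate 2 at 8 h (0.058). The cause of these changes was not tested. Depth limits Camp, Wfdc21, Stfa3 and Fcnb, whose control groups held 0 to 19 counts.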
